A study of Mus musculus with 4 samples.

Results

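The genes described here are the 5S ribosomal RNA genes of the mouse that carry symbols starting with n-R5s (nuclear encoded 5S rRNA) on an Affymetrix whole-transcript array. Members were all symbols of that form that stood alone in the platform annotation of a probe set, and each symbol was represented by its probe set with the highest mean signal. This gave 69 symbols from 94 probe sets, among 30142 genes with a probe set of their own and 72688 probe sets in all. The arrays held total RNA of macrophages taken from the liver of C57BL/6J males, with a disease state labelled CRCLM model, in a study of VEGFC and colorectal cancer spread in the liver. All samples shared strain, sex, tissue and disease model, and the sources used here give no ages. Treatment was an antibody against the chemokine CCL3 or an isotype control antibody, and each treatment had 1 array of a cell fraction labelled m and 1 of a fraction labelled p, in titles that name F4/80 and CD11b without explaining the letters. There were thus 4 arrays with no replicate of any combination, and no label says whether they came from separate mice. The p-values therefore rest on how far the treatment difference varied between the fractions, moderated over all genes. They measure no spread between like arrays or between animals.

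5S rRNA is the smallest RNA of the large ribosomal subunit. It is the only ribosomal RNA of the nuclear genome made by RNA polymerase III: transcription factor IIIA binds a control region inside the gene and recruits TFIIIC, TFIIIB and the polymerase. The RNA binds the ribosomal proteins RPL5 and RPL11 to form the 5S ribonucleoprotein, which joins the pre-ribosome or, when ribosome assembly is disturbed, binds MDM2 and thereby stabilises p53. Mammalian genomes hold a tandem array of near-identical 5S genes and many dispersed copies, a good part of them pseudogenes. Because the copies are so alike, a microarray probe for one of them can hybridise to RNA from others, and the signals below belong to probe sets, not to proven single loci.

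All 69 symbols matched a gene in the RefSeq table of assembly GRCm38.p6, which lists 51 as rRNA and 18 as pseudogenes. By neighbour order in that table, 41 members lay in 1 uninterrupted run of 50 5S genes on chromosome 8, between Gas8 and Gm23647. The run held 40 members listed as rRNA and 1 listed as pseudogene, n-R5s127. The other 28 members were dispersed over 15 chromosomes, 11 listed as rRNA and 17 as pseudogene. The chromosome in the array identifier of at least 1 probe set of the symbol was that of RefSeq for 69 of 69. The sources used here do not give the build of the array annotation, so no positions are reported.

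The 69 symbols carried only 38 distinct sets of values over the arrays, where values equal to 6 decimals were called identical. A total of 35 symbols shared 4 such profiles, and 34 had a profile of their own. The largest shared profile belonged to 24 symbols of the chromosome 8 run: n-R5s100, n-R5s103, n-R5s104, n-R5s105, n-R5s108, n-R5s110, n-R5s111, n-R5s113, n-R5s117, n-R5s121, n-R5s122, n-R5s123, n-R5s124, n-R5s128, n-R5s133, n-R5s134, n-R5s138, n-R5s139, n-R5s141, n-R5s142, n-R5s143, n-R5s144, n-R5s146 and n-R5s149. The second was that of n-R5s101, n-R5s114, n-R5s119, n-R5s129 and n-R5s131, the third that of n-R5s106, n-R5s118 and n-R5s130, and the fourth that of n-R5s112, n-R5s120 and n-R5s125, all in the run as well. Each shared profile is 1 measurement, so counts over symbols repeat it, and counts over profiles are given beside them. The run held 41 members but 10 profiles, while the 28 dispersed members had 28.

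The identical values went beyond the n-R5s symbols. Of the 9 genes of the run that are not members, 8 had an own probe set, and 7 of these (Rn5s, Gm25018, Gm26391, Gm22109, Gm25212, Gm22291 and Gm23284) had the same values as the 24 symbols. With them the main shared profile covered 31 of the 49 genes of the run that had a probe set. Gm24312 shared the profile of n-R5s106, n-R5s118 and n-R5s130. Along the run, 14 of 40 neighbouring pairs of members had the same profile, and the main profile occurred among 10 of the first 21 members and 14 of the last 20, so symbols of different profiles were interspersed.

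A second probe set existed for 25 symbols, the 24 of the main profile and n-R5s136. The probe set with the higher mean carried no chromosome in its identifier, and the other one was assigned to chromosome 8. For the 24 symbols the second probe set gave 9.68, 8.65, 8.89 and 8.41, the same values as n-R5s107, in the order anti-CCL3 fraction m, anti-CCL3 fraction p, isotype fraction m and isotype fraction p. All signals are taken to be log2 values, and this order of arrays is kept throughout. The first and the second probe sets of the 24 symbols differed between treatments by 0.54 and 0.52 and between fractions by -0.78 and -0.76. For n-R5s136 these differences were 0.57 and 0.47 between treatments and -0.69 and -0.63 between fractions.

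**Figure D1:**
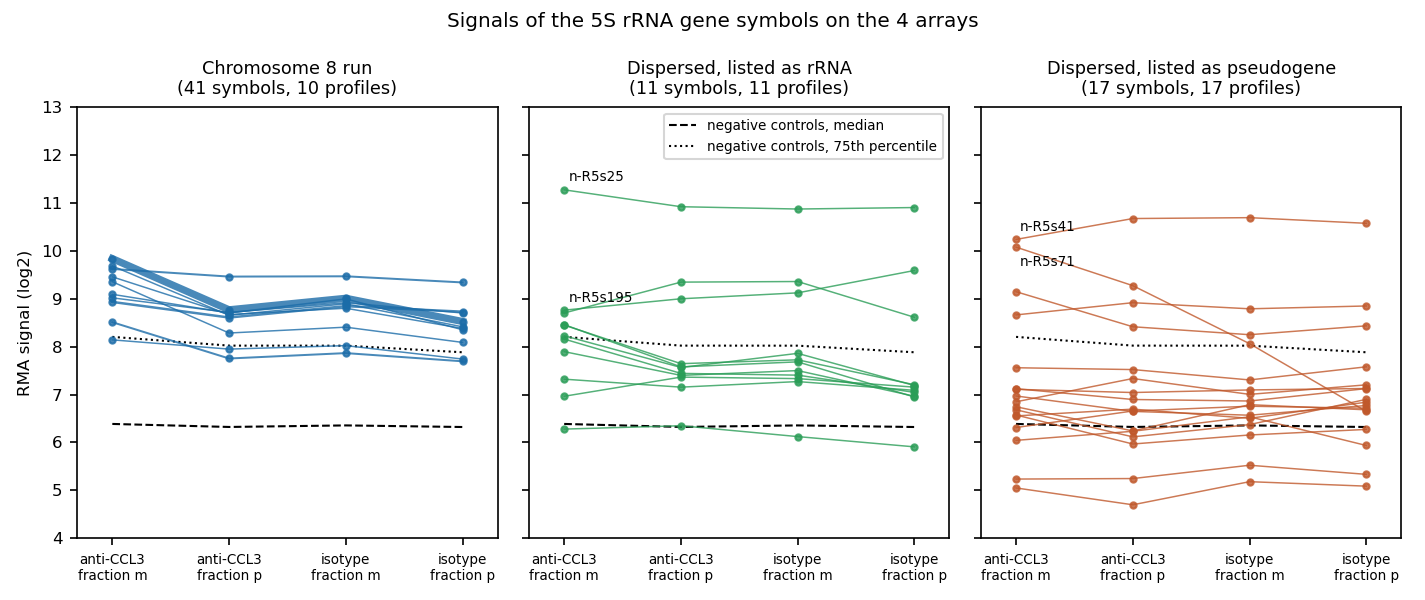
RMA signal (log2, vertical axis) of each 5S rRNA gene symbol on the 4 arrays, for the chromosome 8 run (41 symbols, 10 profiles), dispersed members listed as rRNA (11) and dispersed members listed as pseudogenes (17). Points are single arrays, lines only join the values of 1 probe set, thicker lines are profiles shared by more symbols, and the dashed and dotted lines are the median and the 75th percentile of the negative controls. The run's profiles peak on the anti-CCL3 array of fraction m, while the pseudogene panel has lines of several shapes, and n-R5s71 drops from 10.08 to 6.65 across the panel.

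The median signal of the 69 symbols was 9.09, 8.70, 8.84 and 8.52 on the 4 arrays. It lay at percentiles 95.03, 94.95, 95.39 and 95.35 of all genes. The array's negative-control probe sets had medians from 6.32 to 6.39 and 75th percentiles of 8.20, 8.02, 8.02 and 7.88. Above that 75th percentile stood 50, 44, 45 and 43 of 69 symbols, and above the negative controls' 95th percentile, 11.8 to 12.1, stood 0 on every array. The median symbol was thus bright among genes but at percentiles 81.0 to 82.5 of the negative controls. Depth is not defined for arrays, and their number limits the precision of every value.

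Signals of different probe sets depend on their probes and do not rank the RNA amounts of the copies. As a description of the probe sets, the median over members of the mean signal was 9.03 in the chromosome 8 run, 7.67 in the dispersed members listed as rRNA and 6.74 in the dispersed pseudogenes. The highest means belonged to the dispersed n-R5s25 at 10.99 and the pseudogene n-R5s41 on chromosome 15 at 10.54, followed by n-R5s106, n-R5s118 and n-R5s130 at 9.47, n-R5s195 on chromosome 3 at 9.12 and the main shared profile at 9.03. The lowest belonged to n-R5s12 and n-R5s13 on chromosome X, at 6.19 and 6.16, and to n-R5s92 on chromosome 9 and n-R5s60 on chromosome 12, at 5.34 and 5.01. The last 2, both listed as pseudogenes, lay below 6.16, the median over all genes that served as the limit for testing, and 67 of 69 symbols were tested.

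The check of the labelled cell type bears on what these signals represent. The 10 macrophage and Kupffer cell markers, among them Adgre1 (the gene of F4/80), Cd68, Csf1r, Lyz2 and Clec4f, all had a probe set, and their median signal was 6.18, 6.28, 6.44 and 6.31, in the range of the negative-control median. Csf1r, the receptor that macrophages need for survival, stood at 5.50, 5.34, 5.30 and 5.39. Marco, a scavenger receptor of macrophages, had the highest mean of the list and stood at 8.45, 8.31, 8.49 and 8.34, above the negative controls' 75th percentile on each array, and Cd5l, a protein secreted by tissue macrophages, stood at 7.77, 7.57, 7.46 and 7.86, below it. Most of the list was in the negative-control range, so these markers bear only weakly on the label. The median of their mean signals was 6.30. The lists of monocytes (6.60), B cells (6.55), T cells (6.49), hepatocytes (6.41) and the 1 erythroid marker (6.75) stood above it. Those of sinusoidal endothelial cells (6.01), neutrophils (5.91) and epithelial tumour cells (5.56) stood below. By level the lists thus did not set macrophages apart from other cells. Across the marker lists of the 8 cell types with a tested marker, list medians of the treatment difference ran from -0.04 to 0.17 and of the fraction difference from -0.10 to 0.28, with 0 markers past an adjusted p of 0.05 in limma. Single markers ran wider between fractions, from -0.34 for the monocyte marker Cx3cr1 to 0.63 for the T cell marker Cd3d. The 4 markers of epithelial tumour cells were all too dim to test. The part of cell composition in the 5S values was not tested.

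Setting anti-CCL3 against the isotype control asks how blocking this chemokine relates to the RNA of the hepatic macrophages. The 5S probe sets of the chromosome 8 run mostly had fitted differences (anti-CCL3 minus isotype) above 0. The median was 0.54 over the run's 41 symbols and 0.29 over its 10 profiles. The dispersed members listed as rRNA had a median of 0.30, the dispersed pseudogenes one of -0.03, and the 15071 tested genes one of 0.04. No member passed Benjamini-Hochberg adjustment in limma, and neither did any of the 15071 tested genes (0%). The smallest adjusted p of a member was 0.36, that of n-R5s71. At an unadjusted p of 0.05, 5 of 67 symbols were higher (n-R5s71, n-R5s2, n-R5s33, n-R5s194 and n-R5s211) and 1 lower (n-R5s195), where 6.46% and 1.38% of all tested genes were. Fitted differences were above 0 for 51 of 67 symbols and 24 of 36 tested profiles, against 60% of all tested genes, and below 0 for 16 symbols, against 39.9%. Both anti-CCL3 arrays lay above both isotype arrays for 4 symbols, n-R5s71, n-R5s194, n-R5s25 and n-R5s13, where 21.5% of all tested genes did. They lay below both for n-R5s195 and n-R5s173, 2 symbols, where 10.8% did. In the run this held for 0 of 10 profiles in either direction.

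Setting fraction p against fraction m asks how the cell fractions differ. The 5S probe sets were mostly lower in fraction p: the median difference was -0.52 over 67 symbols, -0.21 over 36 profiles and -0.05 over all tested genes. In the run it was -0.78 over symbols and -0.49 over profiles. The dispersed members listed as rRNA stood at -0.17 and the dispersed pseudogenes at -0.02. Again 0 members passed the adjusted p of limma, as did 0% of all tested genes, and the smallest was 0.46, that of n-R5s2. Differences lay below 0 for 58 of 67 symbols and 27 of 36 profiles, where 61.1% of all tested genes did, and above 0 for 9 symbols, where 38.8% did. At an unadjusted p of 0.05, 33 symbols in 10 profiles were lower, where 7.59% of tested genes were, and 0 were higher, where 1.69% were. Of the 33 symbols, 24 are the main profile, which is 1 measurement. Both fraction p arrays lay below both fraction m arrays for 47 of 67 symbols and 16 of 36 profiles, against 24.2% of tested genes. They lay above for 3 symbols, n-R5s5, n-R5s86 and n-R5s152, against 12.8%.

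**Figure D2:**
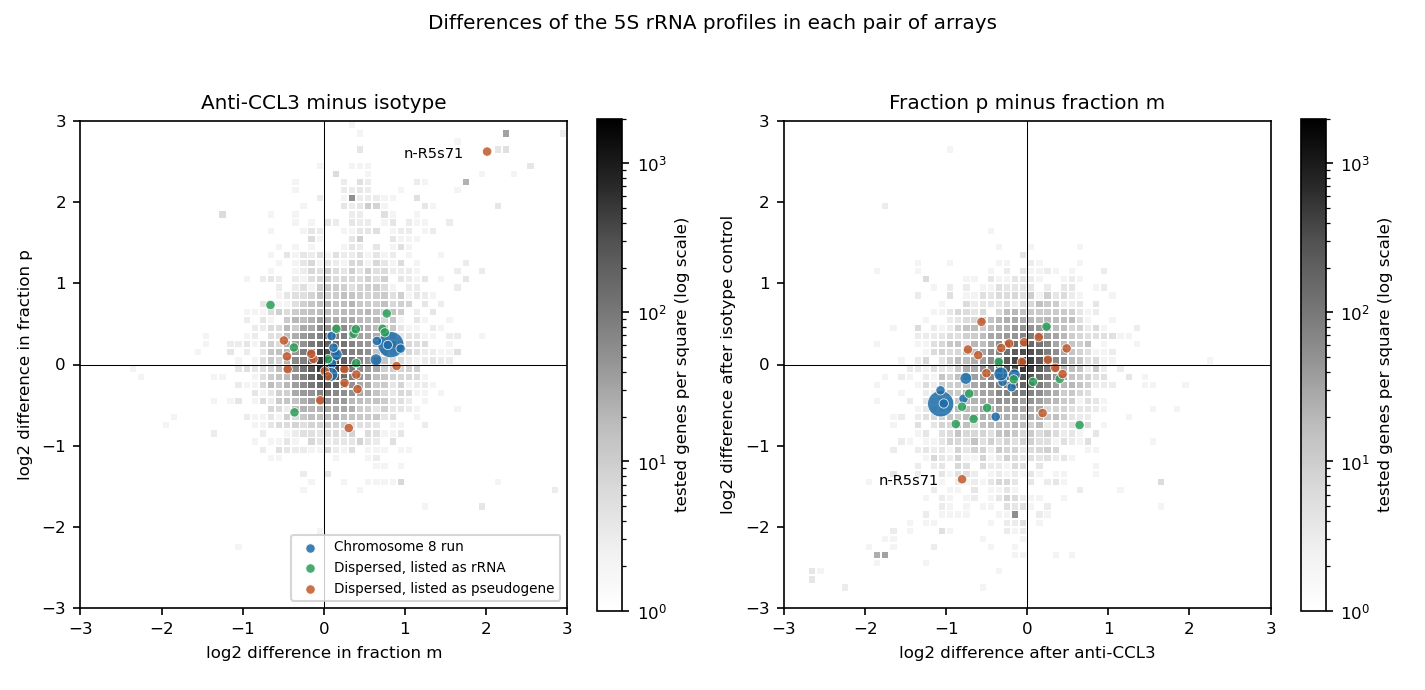
Difference in the first pair of arrays (horizontal axis, log2) against the second pair (vertical axis, log2), for anti-CCL3 minus isotype (fraction m against fraction p) and for fraction p minus fraction m (after anti-CCL3 against after isotype). Circles are 5S profiles sized by the number of symbols, grey squares count all tested genes on a log colour scale, and genes beyond 3 on an axis (90 and 89 genes) are not drawn. The large circle of 24 symbols sits at 0.83 and 0.24 on the left and at -1.07 and -0.48 on the right.

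The main shared profile of the run had signals of 9.84, 8.77, 9.01 and 8.52. The anti-CCL3 array of fraction m stood apart as the high one, and the other 3 arrays lay within 0.49 of each other. Its fitted difference between treatments was 0.54 ± 0.21 (limma's standard error, adjusted p 0.69), with fraction m at 0.83 and fraction p at 0.24, so anti-CCL3 arrays did not all exceed isotype arrays. Between fractions it was -0.78 ± 0.21 (limma, adjusted p 0.51), made up of -1.07 after anti-CCL3 and -0.48 after isotype control, and here the fractions did not overlap. Standard errors rest on 1 residual degree of freedom, moderated over all genes. That degree of freedom is the difference between the paired differences, which the fit counts as noise and which was not tested.

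Further profiles of the run had the same high array. n-R5s136 stood at 9.35, 8.28, 8.41 and 8.09, with 0.57 ± 0.26 between treatments and -0.69 ± 0.26 between fractions. n-R5s109 differed by 0.47 and -0.60 in the same comparisons. The profile of n-R5s112, n-R5s120 and n-R5s125 stood at 8.51, 7.75, 7.86 and 7.69, and differed by 0.35 ± 0.21 and -0.46 ± 0.21. In all 3 of these the anti-CCL3 array of fraction m was again the only high one.

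Flatter profiles existed inside the same run. n-R5s106, n-R5s118 and n-R5s130 stood at 9.62, 9.46, 9.47 and 9.34, a range of 0.28 over the arrays, against 1.31 for the main profile. Their differences were 0.14 ± 0.11 between treatments and -0.14 ± 0.11 between fractions. n-R5s101, n-R5s114, n-R5s119, n-R5s129 and n-R5s131 stood at 8.93, 8.61, 8.84 and 8.73, and their treatment difference was -0.02 ± 0.13, the only one of the run below 0. n-R5s102 differed by 0.06 and -0.26, and the pseudogene n-R5s127, at 8.14, 7.95, 8.02 and 7.74, by 0.16 and -0.24. n-R5s115 was less flat, with a range of 0.74 and differences of 0.22 and -0.52. All 10 profiles of the run were highest on the anti-CCL3 array of fraction m, where 40.5% of tested genes were, and 9 were lowest on the isotype array of fraction p, where 36.5% of tested genes were. In all 10 both fraction p arrays lay below both fraction m arrays. After quantile normalisation, described below with the upper end of the signals on the arrays, these 3 counts were 5, 3 and 6.

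**Figure D3:**
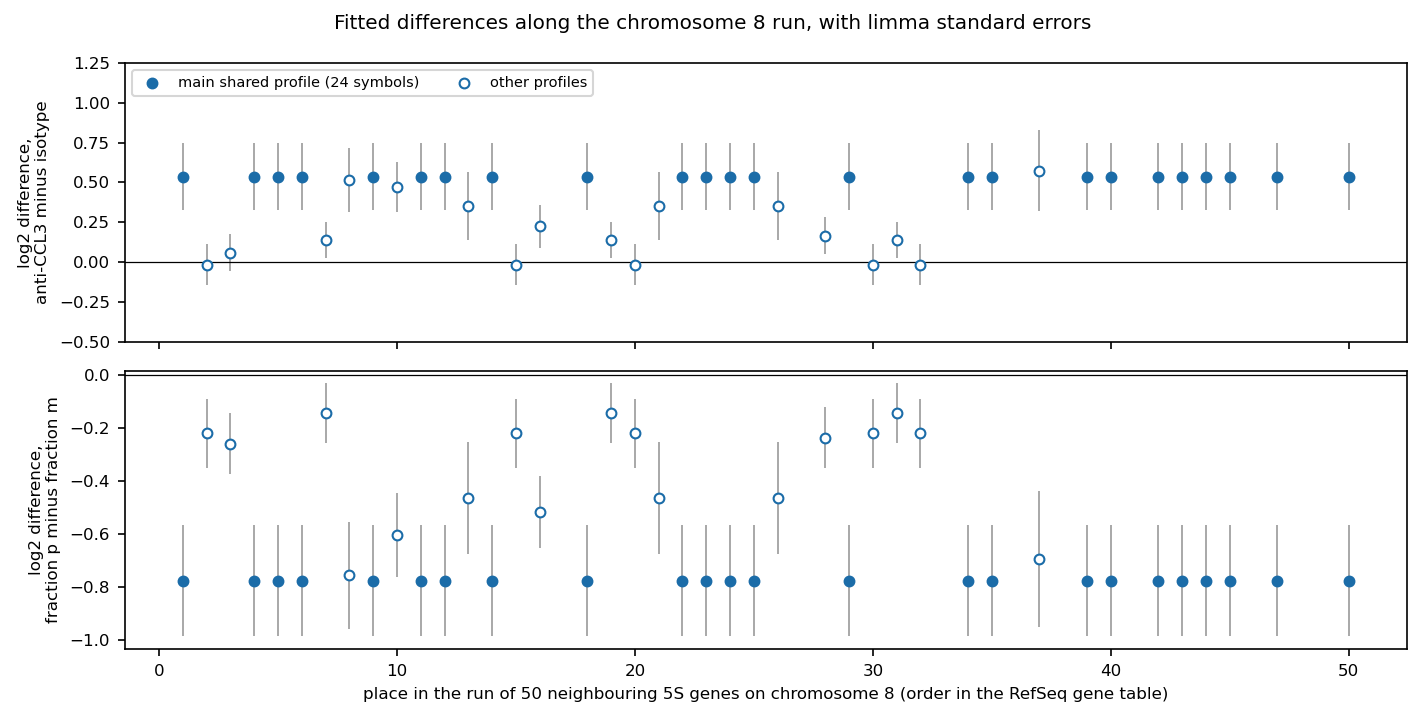
Fitted differences (log2, vertical axis) of the 41 members of the chromosome 8 run against their place among the 50 neighbouring 5S genes (horizontal axis, order only, no distances), for anti-CCL3 minus isotype and fraction p minus fraction m. Each point is 1 symbol with limma's standard error as a bar, and symbols of the main shared profile repeat the same value at 0.54 and -0.78. The flatter profiles, with differences nearer to 0, sit between them along the run.

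Among the 11 dispersed members listed as rRNA, 6 were, like most of the run, highest on the anti-CCL3 array of fraction m and lowest on the isotype array of fraction p. Of all tested genes 40.5% were highest on the former and 36.5% lowest on the latter, and the share with both was not counted. These 6 are grouped by that order of arrays, which fixes the signs of their differences. n-R5s2 on chromosome X stood at 8.46, 7.58, 7.68 and 6.95, with differences of 0.70 ± 0.12 between treatments (limma, adjusted p 0.49) and -0.81 ± 0.12 between fractions (limma, adjusted p 0.46). n-R5s33 on chromosome 16 stood at 8.45, 7.64, 7.72 and 7.20, and differed by 0.58 ± 0.14 and -0.66 ± 0.14. n-R5s194 on chromosome 3 stood at 8.16, 7.44, 7.40 and 7.05, and differed by 0.57 ± 0.16 and -0.54 ± 0.16. For these 3 the remaining arrays lay close together, and for n-R5s194 their order was the reverse of that in the run.

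The remaining ones, n-R5s162 on chromosome 6, n-R5s211 on chromosome 1 and n-R5s58 on chromosome 12, were chosen for mention after their values were seen. n-R5s162 stood at 8.23, 7.57, 7.86 and 7.19, and n-R5s211 at 7.90, 7.40, 7.50 and 6.96. n-R5s58, at 7.32, 7.15, 7.27 and 7.09, had the same order with small steps, and differed by 0.06 ± 0.11 and -0.17 ± 0.11. Over the 5 members without n-R5s58 the treatment difference ran from 0.37 to 0.78 in fraction m and from 0.38 to 0.63 in fraction p, above 0 through the grouping by order. In the main profile of the run the corresponding values were 0.83 and 0.24. These 5 belong to the 33 symbols that were lower in fraction p at the unadjusted level, and n-R5s58 does not. The smallest adjusted p among the 6 in limma was 0.46.

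n-R5s195 on chromosome 3 had the extremes reversed, lowest on the anti-CCL3 array of fraction m and highest on the isotype array of fraction p. It stood at 8.76, 8.998, 9.12 and 9.59, lowest where the run was highest. Its treatment difference was -0.48 ± 0.13 (limma, adjusted p 0.61), with fraction m at -0.36 and fraction p at -0.59. Its fraction difference was 0.35 ± 0.13 (limma, adjusted p 0.61), 0.24 after anti-CCL3 and 0.47 after isotype. Both anti-CCL3 arrays lay below both isotype arrays, while the fractions overlapped.

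The orders of arrays differed among the remaining dispersed members listed as rRNA. n-R5s25 stood at 11.27, 10.92, 10.87 and 10.90, that is, near 10.9 on 3 arrays, and its differences were 0.21 ± 0.16 and -0.16 ± 0.16. n-R5s151 on chromosome 7, which was also picked out after its values were seen, stood at 8.70, 9.35, 9.36 and 8.61. Its treatment difference was -0.66 for the fraction m arrays and 0.73 for those of fraction p, and the fitted 0.04 ± 0.44 has the largest standard error of the members. n-R5s13, close to the limit for testing, stood at 6.28, 6.35, 6.12 and 5.91.

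On the deposited scale the dispersed pseudogenes had no common direction, and their counts after quantile normalisation are given below. Of the 15 that were tested, 6 were higher and 9 lower after anti-CCL3, and 7 were higher and 8 lower in fraction p. Only 1 of 15 was higher after anti-CCL3 in both fractions, where 34.6% of tested genes were. n-R5s173 on chromosome 5 stood at 6.31, 6.66, 6.76 and 6.72, n-R5s210 on chromosome 1 at 6.75, 6.24, 6.79 and 6.68, and n-R5s204 on chromosome 2 at 6.68, 6.12, 6.37 and 6.90. Their treatment differences were -0.25 ± 0.16, -0.24 ± 0.17 and -0.24 ± 0.35. All these signals lie close to the negative-control medians of 6.32 to 6.39.

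The highest fraction differences among the pseudogenes were of similar size. n-R5s152 on chromosome 7, at 6.85, 7.33, 7.004 and 7.20, differed by 0.34 ± 0.14, and n-R5s86 on chromosome 9, at 6.55, 6.70, 6.504 and 6.84, by 0.24 ± 0.13. n-R5s41 stood at 10.24, 10.67, 10.69 and 10.57, so the anti-CCL3 array of fraction m was its low one, and it differed by 0.16 ± 0.20 between fractions and -0.18 ± 0.20 between treatments. n-R5s12 stood at 6.04, 6.23, 6.54 and 5.94.

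n-R5s71, a pseudogene on chromosome 11, had the widest range of the members over the arrays, 3.43, ahead of 1.51 for n-R5s2. It stood at 10.08, 9.27, 8.06 and 6.65, that is, high on both anti-CCL3 arrays and, on the isotype array of fraction p, near the negative-control median of 6.32. The treatment difference was 2.32 ± 0.22 (limma, adjusted p 0.36), with fraction m at 2.01 and fraction p at 2.63, and the groups did not overlap. The isotype signal of 6.65 lay below the negative controls' 75th percentile of 7.88 on that array, so 2.63, and the fitted value that includes it, are set against a signal in the negative-control range and give no fold of the RNA. Its fraction difference was -1.11 ± 0.22 (limma, adjusted p 0.47), -0.80 after anti-CCL3 and -1.41 after isotype control. Among all genes its signal lay at percentiles 97.1, 96.4, 92.4 and 73.9, so its place among genes differed between arrays as well. The next treatment difference among the members was the 0.70 of n-R5s2.

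The upper end of the signals on the arrays moved with the 5S signals. The medians over all transcript clusters were near equal, at 6.21, 6.18, 6.18 and 6.18. Centring each array on its median left the symbols' medians at 0.35 between treatments and -0.50 between fractions. Those of the run's symbols were then 0.52 and -0.76. The 95th percentile of the signal over all genes, where the median symbol lay, was 9.07, 8.72, 8.72 and 8.41, with differences of 0.32 between treatments and -0.33 between fractions. The main shared profile lay at percentiles 96.6, 95.1, 95.9 and 95.3 among genes, a narrow range. When the arrays were brought to a common distribution by quantile normalisation, the main profile stood at 9.47, 8.80, 9.03 and 8.81, and its differences were 0.21 and -0.45. The symbols' median was then 0.17 between treatments, with 41 of 67 above 0, and -0.28 between fractions, with 43 of 67 below 0. Over 36 profiles the medians became -0.04 and -0.03, so that the direction between treatments turned. Of these profiles 16 were above 0 and 20 below between treatments, and 18 were above and 18 below between fractions.

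That scaling also changed the split over all tested genes. Before it, 9038 were higher and 6006 lower after anti-CCL3, and 5842 were higher and 9202 lower in fraction p. After it, 6869 were higher and 8195 lower, and 7917 were higher and 7147 lower, respectively. In the run 31 of 41 symbols stayed above 0 between treatments and 32 of 41 below 0 between fractions. By profile, 3 of the run's 10 turned in each comparison, and n-R5s127 was left at 0.003 between treatments. The sign turned in at least 1 comparison for 13 of 36 profiles, 4 of them among the 10 of the run. In the run both differences turned for n-R5s106, n-R5s118 and n-R5s130, to -0.25 and 0.21, and for n-R5s102, to -0.23 and 0.05. The treatment difference of n-R5s115 turned to -0.05, and the fraction difference of n-R5s101, n-R5s114, n-R5s119, n-R5s129 and n-R5s131 turned to 0.07. After this scaling 5 of the run's 10 profiles were highest on the anti-CCL3 array of fraction m, 3 were lowest on the isotype array of fraction p, and 6 had both fraction p arrays below both fraction m arrays. Of the dispersed members listed as rRNA, n-R5s25 turned to -0.55 and 0.55, n-R5s151 to -0.24 and 0.20 and n-R5s58 to -0.03 between treatments. Of the 15 tested dispersed pseudogenes, 4 were then higher and 11 lower after anti-CCL3, and 11 were higher and 4 lower in fraction p. n-R5s71 kept 2.11 and -0.90, n-R5s2 kept 0.56 and -0.67, and n-R5s195 had the larger values of -0.80 and 0.67. The number of symbols lower in fraction p at the unadjusted level went from 33 to 3, while median centring left it at 33.

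**Figure D4:**
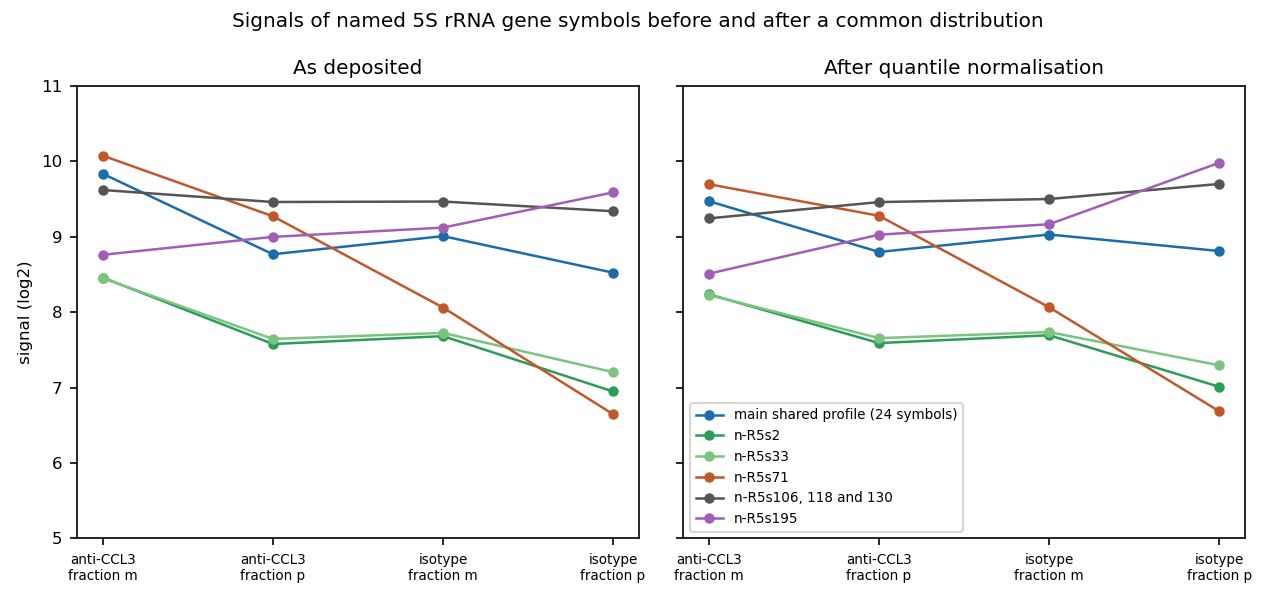
RMA signal (log2, vertical axis) on the 4 arrays for named 5S profiles, as deposited and after quantile normalisation of the deposited values. Points are single arrays, joined within a profile. The main profile goes from 9.84, 8.77, 9.01 and 8.52 to 9.47, 8.80, 9.03 and 8.81, and n-R5s71 keeps its order of arrays in both panels.

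The tested genes of the 5S particle, the TFIII factors and RNA polymerase III had treatment differences between -0.22 and 0.30, and many genes of these lists were too dim to test. A probe set existed for 8 of 10 genes of the 5S ribonucleoprotein and its assembly, and 4 were tested. None passed the test (0 of 4 in both directions). Rpf2, whose product helps to load the 5S particle onto the pre-ribosome, differed by 0.30 ± 0.11 between treatments and -0.19 between fractions. Rrs1, its partner in that step, differed by 0.06 and -0.06, and Rpl11, the ribosomal protein bound to 5S rRNA, by -0.04 and -0.06. Ssb, the La protein that binds the ends of new polymerase III transcripts, differed by 0.14 and 0.08. Gtf3a, which encodes TFIIIA, stood at 5.59, 5.78, 5.76 and 5.88, below the limit for testing, as did Mdm2, Heatr3 and Sdad1.

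Of 12 genes of TFIIIA, TFIIIB and TFIIIC with their repressor Maf1, 12 had a probe set and 6 were tested, with 4 higher and 2 lower after anti-CCL3 and a median of 0.02, whose sign turned under all 3 other scalings. In fraction p 2 were higher and 4 lower, with a median of -0.07, which turned to 0.00 after quantile normalisation. The extremes between treatments were Brf2 at 0.10, a TFIIIB subunit that serves genes with external promoters, Gtf3c2 at 0.10, Maf1 at -0.03 and Gtf3c6 at -0.22, the Gtf3c genes encoding TFIIIC subunits. Of 18 genes of RNA polymerase III, 16 had a probe set and 8 were tested, with 6 higher and 2 lower after anti-CCL3 (median 0.07) and 5 higher and 3 lower in fraction p (median 0.03). Polr3a, the largest subunit, differed by 0.12 and Polr3f by 0.11 between treatments, and Polr3gl and Polr3g, alternative forms of 1 subunit, by -0.06 and -0.19. None of these genes passed the test in limma (0 of 6 and 0 of 8).

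Most of the tested other products of RNA polymerase III stood on the same side as the medians of the 5S symbols, as did most tested genes. Of 11 genes listed, all had a probe set and 9 were tested, with 7 higher and 2 lower after anti-CCL3 (median 0.22) and 2 higher and 7 lower in fraction p (median -0.22). Of all tested genes, 60% were higher after anti-CCL3 and 61.1% lower in fraction p. After quantile normalisation 6 were higher and 3 lower after anti-CCL3 (median 0.13). In fraction p 3 were then higher and 6 lower (median -0.13). Rn4.5s, a rodent small RNA, differed by 1.41 ± 0.36 between treatments and -1.48 between fractions, and the U6 gene Rnu6 by 1.03 ± 0.60 and -0.86. Bc1, a rodent RNA known from neurons, differed by 0.75 ± 0.13 and -0.67, and Rn7sk, the 7SK RNA that holds back P-TEFb, by 0.46 ± 0.12 and -0.28. Others stood on the opposite side. Rny1, a Y RNA bound by Ro60, differed by -0.50 ± 0.12 between treatments, and Rpph1, the RNA of RNase P, by -0.13 and 0.23. Rny3, another Y RNA, was 0.66 higher in fraction p. Rn7s1 and Rn7s2, the 7SL RNA genes, had identical values, so the counts above hold this 1 measurement under both symbols. No gene of the list passed the test (0 of 9 in each direction).

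Among ribosomal RNAs made by other polymerases, 2 of 6 had a probe set of their own. Rn28s1 stood at 8.17, 7.93, 7.82 and 7.70, and differed by 0.29 ± 0.12 and -0.18 ± 0.12, less than the main 5S profile in both comparisons, a contrast that was not tested. The mitochondrial mt-Rnr1 stood at 16.87, 13.77, 15.78 and 12.56, and differed by 1.15 ± 0.12 and -3.17 ± 0.12. Neither passed the adjusted p in limma. Small nucleolar and Cajal body RNAs, 35 of them tested, had medians of -0.07 and -0.03, and 13 tested small nuclear RNAs had medians of 0.43 and -0.18.

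The mean profile of the 69 symbols was 8.74, 8.18, 8.31 and 8.02. The genes outside the group whose signals correlated most closely with it over the 4 arrays were Vmn2r36, Gm8379, Itga5, Gm13545 and 1700001G11Rik, each with a Pearson correlation of 0.9998 or more. Vmn2r36 stood at 8.19, 7.45, 7.62 and 7.25, and Itga5 at 6.61, 6.44, 6.47 and 6.39, so the likeness is one of shape and not of size. With 4 arrays such values are common: 182 of 14968 genes, 1.22%, had a correlation above 0.99. All arrays entered both sides, and the correlation is a description.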

How the data were processed

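Per the labels' protocols, RNA was isolated with TRIzol and columns and labelled with a WT Pico reagent kit. Per the submitters' processing notes, the authors used RMA and Affymetrix Expression Console, and the deposited table has a log2 value for each probe set. No source used here states the scale, and log2 was assumed from RMA's usual output. Values up to 19.9, and 99th percentiles from 14.5 to 15.6 that differ between arrays, are unusual for RMA with quantile normalisation, so every difference printed as log2 rests on that assumption. The sources used here do not give versions, options or the annotation release.

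Symbols came from the platform annotation: 30604 of 65956 transcript clusters had 1 symbol, 2146 several and 33206 none listed, and 827 symbols were updated by gene number through RefSeq (GRCm38.p6). Each gene was represented by its probe set of highest mean, and the test took the 15071 genes whose mean reached the median, 6.16. The deposited values of 4 arrays were fitted in R 4.3.3 with limma 3.58.1 (input by data.table, version 1.17.8), with additive terms for antibody and fraction and Benjamini-Hochberg adjustment at 0.05 over all tested genes. The fit has 1 residual degree of freedom and 1.69 from the prior, and standard errors near 0.11 are set by the prior. Differences within 1 fraction or treatment are of 1 array against 1 and have no test. The script was tested on simulated data.

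Genes named with values were the 10 members of highest and 4 of lowest mean, the 4 highest and 4 lowest differences per comparison, shared profiles, the 5 most similar genes and the extremes of each gene list. The mention of other members was decided after their values were seen. Members and lists were chosen with earlier results of these data known. Alternatives were 3 scalings (quantile, median, cyclic loess), no filter, the mean of probe sets, 1 gene per profile, 1 factor alone and each array left out. The reference tables used here hold no 5S sequences, and none are printed.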

Additional observations from a re-analysis of the deposited data

Results flagged for a closer look

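Among the members whose values are given in the text, some differed in opposite directions in the 2 pairs of arrays, each side being 1 array against 1, and the difference between pairs was not tested. Between treatments, given as the value in fraction p minus that in fraction m, these were n-R5s151 by 1.39 (-0.66 in m, 0.73 in p), n-R5s12 by 0.79 (-0.49 and 0.30), n-R5s41 by 0.55 (-0.45 and 0.10), n-R5s152 by 0.29 (-0.15 and 0.13), n-R5s5 by 0.196 (-0.13 and 0.07), n-R5s86 by -0.20 (0.05 and -0.15), the profile of n-R5s101, n-R5s114, n-R5s119, n-R5s129 and n-R5s131 in the run by -0.21 (0.09 and -0.12) and n-R5s204 by -1.09 (0.31 and -0.78).

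Between fractions, given as the value after isotype control minus that after anti-CCL3, these were n-R5s204 by 1.09 (-0.56 after anti-CCL3, 0.53 after isotype), n-R5s25 by 0.38 (-0.35 and 0.03), n-R5s13 by -0.28 (0.07 and -0.21), n-R5s173 by -0.39 (0.34 and -0.04), n-R5s41 by -0.55 (0.44 and -0.12), n-R5s12 by -0.79 (0.19 and -0.60) and n-R5s151 by -1.39 (0.64 and -0.75). Over all 36 tested profiles the pairs were opposite between treatments for 15, of which 1 lies in the run and 12 are dispersed pseudogenes, and between fractions for 14, of which 0 lie in the run and 10 are dispersed pseudogenes. Both pairs lay above 0 between treatments for 50% of these profiles and below 0 for 8.33%, against 34.6% and 18.5% of all tested genes. Between fractions both lay above 0 for 11.1% and below 0 for 50%, against 19.0% and 36.3%. Opposite pairs were thus not more frequent over these 36 profiles than over all tested genes.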

How the results depend on the processing

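The count of members past the adjusted p was 0 under every alternative that gives a test. The median difference between fractions, -0.52, became -0.28 under quantile normalisation and -0.21 with 1 gene per profile, and the median level of 8.80 became 7.69 with 1 gene per profile. Leaving out each array gave a median treatment difference of 0.24 to 0.64 and a fraction difference of -0.73 to -0.42, without a test. Among the members with values in the text, the treatment difference turned under quantile and cyclic loess normalisation for n-R5s25 (-0.55 and -0.31), n-R5s106, n-R5s118 and n-R5s130 (-0.25 and -0.19), n-R5s102 (-0.23 and -0.19), n-R5s115 (-0.051 and -0.015), n-R5s151 (-0.24 and -0.23) and n-R5s58 (-0.029 and -0.0066). The fraction difference turned for n-R5s25 (0.55 and 0.395), n-R5s106, n-R5s118 and n-R5s130 (0.21 and 0.20), the profile of n-R5s101 (0.071 and 0.028), n-R5s151 (0.20 and 0.23) and n-R5s204 (0.036 and 0.0076), and for n-R5s102 under quantile normalisation (0.047). The cause was not tested. Of these members' other fitted values under an alternative, 435 kept their direction. That count is no measure of robustness, since many of these values could not turn. In this balanced layout the fitted difference is the same with no filter, with 1 gene per profile and without the other factor. The mean of probe sets alters only symbols with several probe sets, and median centring shifts all genes alike. The side of the threshold could not differ, since no tested gene passed it under any alternative. Within 1 pair of arrays 80 single-member values moved by more than the standard error and 56 by less. That count is no check on the fit. The standard error is itself built from the difference between the pairs and moderated by the prior. Of the medians over subsets of members, 25 moved by more than the spread between pairs and 55 by less, apart from values within 1 pair. At the unadjusted level, 33 symbols were lower in fraction p, against 3 under quantile normalisation, 5 under cyclic loess, 10 with 1 gene per profile and 2 without the other factor. Over all tested genes the corresponding count was 1144, against 672, 741, 1042 and 693, and 1689 with no filter. The labels give no replicate numbers, so no replicate block was fitted. The arrays are paired by fraction in the additive fit, and the fit of 1 factor alone is the unpaired one. With 1 array per combination, a real difference and the variation between arrays cannot be told apart.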
